A study of Mus musculus with 19 samples.

Results

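The 10 genes described here are members of the circadian clock: the activators Arntl (also called Bmal1) and Clock, the repressors Per1, Per2 and Cry1, the nuclear receptors Nr1d1 and Nr1d2 (REV-ERB alpha and beta), the output factors Dbp and Tef, and the repressor Nfil3. They were chosen by gene symbol, and all 10 were found among the 13549 genes of the embryo table and, by Ensembl identifier, among the 17606 genes of the tumour files. The study modelled fibrolamellar carcinoma, a liver cancer in which the DNAJB1 chaperone gene is fused to PRKACA, so that a catalytic subunit of protein kinase A, or PKA, is made as a chimera. The first experiment compared livers of 5 control mouse embryos with livers of 4 embryos overexpressing the fusion, all at embryonic day 18.5. The fusion cDNA, joined to a GFP reporter in the Rosa26 locus, was preceded by a stop cassette that Alb-Cre removes, so that expression follows the albumin promoter and thus hepatocytes and their precursors; which alleles the control embryos carried is not given in the sources used here. The second experiment compared 10 tumours of the mouse cell line FL8, a single line, grown in gelatin capsules in the flanks of NSG mice, an immunodeficient strain without mature lymphocytes. Once tumours averaged 75 mm3, 5 mice received the methocel vehicle and 5 received palbociclib, an inhibitor of the cell cycle kinases CDK4 and CDK6, by mouth on 3 days at 75 mg/kg, followed by 4 days without treatment. The series text speaks of PBS for the mice not given palbociclib, and the wording of the sample labels was followed. The labels give neither the hour at which livers or tumours were taken nor the strain and litter of the embryos, and whether any difference below comes from the hour of collection was not tested.

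The circadian clock is a loop of transcription and translation that runs in most cells with a period of about a day. ARNTL and CLOCK pair and bind E-box elements to activate the Per and Cry genes, whose proteins later repress that pair. The same pair activates Nr1d1 and Nr1d2, whose products repress Arntl at elements shared with the activating ROR receptors. DBP and TEF activate genes through D-box elements, which NFIL3 occupies as a repressor. Per1 is also an acute target of PKA signalling, through the factor CREB and its cyclic AMP response element (CRE). In the adult liver these genes cycle with high amplitude and time bile acid, haem and glucose metabolism, while the rhythms of the fetal liver are less developed. The level of each gene in a sample taken at a single time therefore depends on the phase as well as on the mean.

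Sequences upstream of 4 members are shown because they carry letters by which this wiring is usually described. Per1, Cry1 and Tef carry E-boxes. Nr1d2, the member with the firmest difference below, carries AGGTCA, the core letters of a ROR and REV-ERB element. The sequences come from RefSeq on GRCm38.p6, which matched 9 of the 10 members. It gave 14 windows of 300 bases, from 250 before to 50 after a transcript start. Each printed run ends before any GENCODE M21 exon of its gene. Capitals mark CACGTG (E-box), TGACG (the core of a CRE) and AGGTCA or its reverse TGACCT, on either strand. AGGTCA is only the core of a ROR and REV-ERB element, and whether the full element is present was not tested. The run of Nr1d2 lies at chr14:18239128-18239356 on the minus strand and that of Cry1 at chr10:85185065-85185304 on the minus strand, both upstream of the gene. The runs of Per1, at chr11:69098699-69098947 on the plus strand, and of Tef, at chr15:81811164-81811413 on the plus strand, precede internal starts and lie in introns of longer transcripts.
Nr1d2: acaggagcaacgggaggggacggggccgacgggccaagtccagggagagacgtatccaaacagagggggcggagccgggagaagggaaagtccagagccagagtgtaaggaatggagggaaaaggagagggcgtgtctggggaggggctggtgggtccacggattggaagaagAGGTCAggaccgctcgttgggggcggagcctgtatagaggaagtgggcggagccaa
Per1: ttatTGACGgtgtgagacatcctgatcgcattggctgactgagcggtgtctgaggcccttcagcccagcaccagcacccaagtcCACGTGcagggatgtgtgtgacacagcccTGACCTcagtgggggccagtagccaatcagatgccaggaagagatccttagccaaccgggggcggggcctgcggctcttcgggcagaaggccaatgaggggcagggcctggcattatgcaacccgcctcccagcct
Cry1: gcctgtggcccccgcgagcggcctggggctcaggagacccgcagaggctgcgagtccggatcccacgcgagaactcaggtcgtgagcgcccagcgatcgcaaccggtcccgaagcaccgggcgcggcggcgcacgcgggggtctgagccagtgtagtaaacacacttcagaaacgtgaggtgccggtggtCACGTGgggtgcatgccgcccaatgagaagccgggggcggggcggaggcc
Tef: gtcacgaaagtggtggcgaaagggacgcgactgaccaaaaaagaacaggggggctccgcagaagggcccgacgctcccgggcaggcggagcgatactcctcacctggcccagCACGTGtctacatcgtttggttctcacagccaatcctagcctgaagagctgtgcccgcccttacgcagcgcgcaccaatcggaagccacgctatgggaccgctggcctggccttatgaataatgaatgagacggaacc

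In these windows, of which some members have several, the E-box was present in 4 of 14 (in Cry1, Per1 and Tef) and in 7.15% of 32851 RefSeq promoter windows of the same length. The letters TGACG stood in 4 of 14 windows (in Cry1, Nfil3 and Per1) and in 20.8% of all windows. AGGTCA stood in 5 of 14 windows (in Arntl, Clock, Nfil3, Nr1d2 and Per1) and in 16.3% of all windows. The full CRE TGACGTCA, which contains TGACG, was in no member window and in 1.79% of all windows, and the D-box spellings TTACGTAA and TTATGTAA were in no member window and in 0.119% and 0.938% of all windows. In the printed run of Per1 the letters TGACG, the E-box and TGACCT begin at positions -246, -166 and -137. Another window of Per1, not printed, holds TGACG at -132. Whether CREB binds at either TGACG was not tested. Position -1 is the base before the start.

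Library totals were 7.66 to 23.1 M counts (1 M is 1000000) in control embryos, 13.5 to 45.6 M in fusion embryos, 2.96 to 33.9 M in vehicle tumours and 24.9 to 43.1 M in palbociclib tumours. The embryo libraries fell into 2 sets by the share of counts on ribosomal protein genes, which was 9.68% to 10.1% in controls 1 and 2 with fusion livers 8 and 9, against 6.16% to 7.85% among the remaining 5; the labels name no batch. Xist, which is expressed from the inactive X chromosome of females, ranged over 168 to 473 CPM in 5 female livers (control 1 and 2, fusion 6 to 8) and 0.235 to 0.548 CPM in 4 others. In the set of control 3 to 5 with fusion 6 and 7 the controls were thus male and the fusion embryos female, and genotype and sex cannot be told apart there. Prkaca, the mouse gene of the kinase in the transgene, was at 36.3 to 50.5 CPM in control and 52.0 to 114 CPM in fusion livers, with every fusion library above every control. All 8 hepatocyte markers listed were measured in both experiments. Among the tumours, vehicle 1 stood apart: 46.6% of its reads were mitochondrial, against 1.24% to 6.47% in the other 9, its 6 measured macrophage markers summed to 1192 CPM, against 55.0 to 148 CPM, and its hepatocyte markers to 31384 CPM, against 67814 to 102027 CPM. Its mitochondrial reads lower the CPM of its other genes, so the hepatocyte sum is not comparable with those of the other tumours. Vehicle 5 was the shallowest library of the series. Tumour differences are therefore given with and without vehicle 1, and FL8 reads and reads of the mouse host cannot be told apart.

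Levels of different genes were compared only per length, as CPM (counts per 1000000) divided by the kilobases of exon in GENCODE M21. In control livers Per1 was the highest member at 9.07 ± 0.779 CPM per kb (SD, n = 5), followed by Nfil3 at 8.46 ± 1.11 CPM per kb, and the libraries of these 2 genes overlapped. Tef (4.46 CPM per kb), Cry1 (3.44 CPM per kb) and Per2 (3.34 CPM per kb) formed a middle tier whose neighbours overlapped. Arntl, Nr1d2, Nr1d1 and Clock lay between 1.36 and 0.884 CPM per kb, again with overlapping neighbours. Dbp was the lowest at 0.501 ± 0.118 CPM per kb, below every library of Clock, and rested on 7 to 37 counts per control library. In fusion livers Per1 (7.49 ± 0.658 CPM per kb, SD, n = 4) and Nfil3 (6.37 ± 0.514 CPM per kb) were again the highest and Dbp (0.558 ± 0.124 CPM per kb) the lowest. Across the 9 livers the members were narrow in range: the highest library exceeded the lowest 1.35-fold for Cry1, 1.48-fold for Per1 and at most 3.55-fold, for Arntl.

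**Figure D1:**
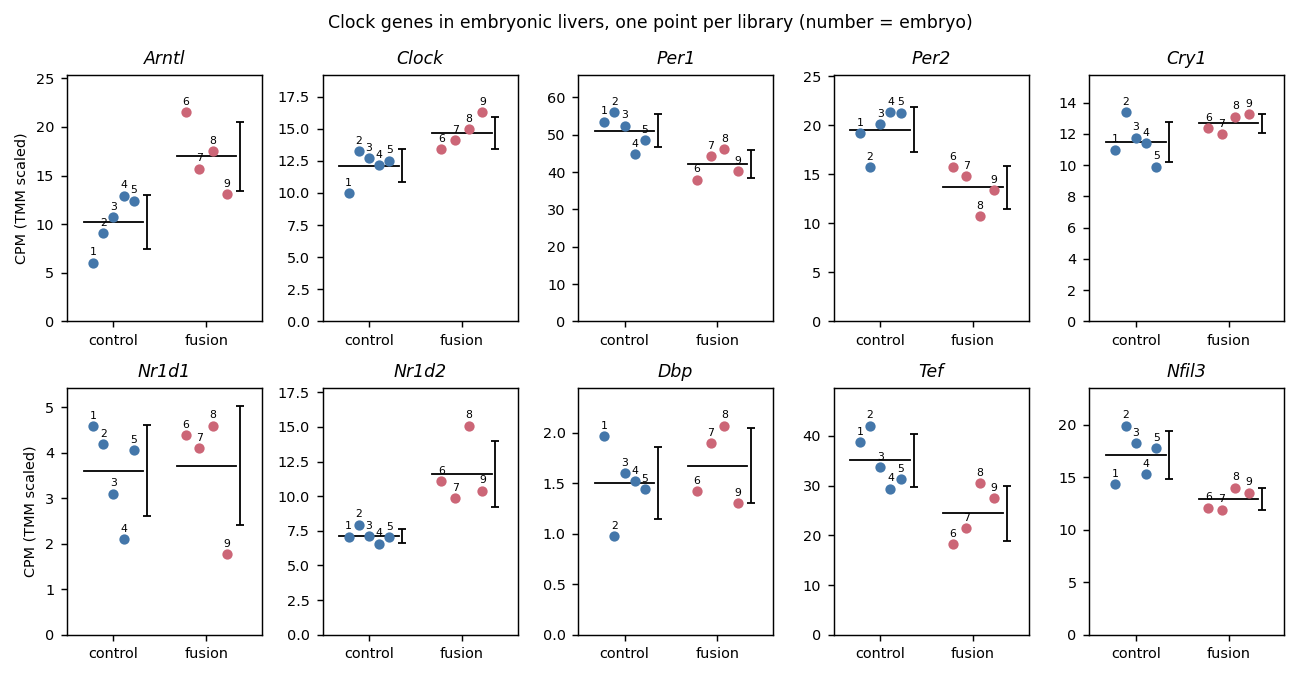
CPM of the 10 clock genes in each embryonic liver (y axis from 0, scaled with TMM factors; numbers are the embryo labels); horizontal lines are group means and the bars at the side their SD (control n = 5, fusion n = 4). Arntl, Clock and Nr1d2 lie higher, and Per2 and Nfil3 lower, in every fusion library than in every control library, while Nr1d1, Dbp and Cry1 overlap.

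The embryo comparison asks how clock gene levels differ between fetal livers with and without the fusion. Nr1d2 was higher in fusion livers, by 0.70 ± 0.15 on the log2 scale (SE; adjusted p = 0.0123 in edgeR), and Per2 lower, with a log2 fold change of -0.51 ± 0.14 (SE; adjusted p = 0.0363 in edgeR). The other 8 members did not pass the threshold of 0.05, although Arntl, at a log2 fold change of 0.72, came close. These 2 of 10 members, 1 in each direction, stand beside 1704 of 13316 genes tested, or 12.8% (5.99% higher and 6.81% lower), so the count of members lies near the background. At an unadjusted p under 0.05 the count was 7 of 10 members, beside 29.3% of all genes. Every fusion library lay beyond every control library for 5 of 10 members, beside 16.5% of all genes: 3 higher (Arntl, Clock and Nr1d2), beside 8.37%, and 2 lower (Per2 and Nfil3), beside 8.15%. The median log2 fold change of the members was 0.09, with 6 above and 4 below 0, and that of all genes was -0.01. In bulk RNA, fewer cells of a type and less RNA per cell cannot be told apart, which holds for every difference given here.

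Of the activators, Arntl was at 6.06, 9.06, 10.8, 12.9 and 12.4 CPM in control 1 to 5 and at 21.5, 15.7, 17.6 and 13.1 CPM in fusion 6 to 9. The groups did not overlap, though control 4 and fusion 9 were almost level. The difference of 0.72 ± 0.22 (SE) on the log2 scale missed the threshold with an edgeR adjusted p of 0.0511. It passed with DESeq2 (adjusted p = 0.0172), with the library set as a covariate (edgeR adjusted p = 0.00207, log2 fold change 0.81) and within each set of libraries, where the log2 fold changes were 1.08 and 0.64. It did not pass with sex as a covariate, where the log2 fold change was 0.85 (edgeR adjusted p = 0.0638). Nor did it pass among genes averaging 10 CPM or more (edgeR adjusted p = 0.0731). Arntl passed in 2 of 9 fits without 1 embryo, those without control 4 or fusion 9. Clock, the partner of Arntl, ranged from 9.99 to 13.2 CPM in control and from 13.4 to 16.3 CPM in fusion livers. All fusion libraries lay above all controls by a narrow margin, and the log2 fold change of 0.28 ± 0.12 (SE) did not pass (edgeR adjusted p = 0.163).

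Among the repressors of the ARNTL and CLOCK pair, Per2 was at 19.2, 15.8, 20.1, 21.3 and 21.3 CPM in control 1 to 5 and at 15.7, 14.8, 10.7 and 13.4 CPM in fusion 6 to 9. Control 1, 3, 4 and 5 were well above all fusion livers, while control 2 and fusion 6 touched. The fall of Per2 held with DESeq2 (adjusted p = 0.00770) and with the library set as a covariate (edgeR adjusted p = 0.00400). It was past the threshold no longer with sex as a covariate (edgeR adjusted p = 0.0860), within the set of control 1 and 2 and fusion 8 and 9 (log2 fold change -0.53, edgeR adjusted p = 0.0674), or in 7 of 9 fits that left out 1 embryo, all but those without control 2 or fusion 6. Per1 was at 44.9 to 56.1 CPM in control and 38.0 to 46.1 CPM in fusion livers, a log2 fold change of -0.28 ± 0.11 (SE; adjusted p = 0.117 in edgeR). The groups overlapped only through control 4 and fusion 8. Per1 passed the threshold in 1 of 8 other settings, that with the library set as a covariate (edgeR adjusted p = 0.0286). Cry1, which completes the repressor complex, stayed between 9.91 and 13.4 CPM in controls and between 12.0 and 13.3 CPM in fusion livers, with a log2 fold change of 0.15 ± 0.12 (SE; adjusted p = 0.451 in edgeR).

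Nr1d2, whose upstream run with AGGTCA is printed above, was at 7.07, 7.95, 7.10, 6.58 and 7.03 CPM in control 1 to 5 and at 11.1, 9.85, 15.1 and 10.4 CPM in fusion 6 to 9. The controls were tightly grouped and every fusion liver was above them. The mean went from 7.14 ± 0.497 (SD, n = 5) to 11.6 ± 2.38 CPM (SD, n = 4). Nr1d2 was past the threshold in 7 of 7 other settings in which it was tested and in 9 of 9 fits without 1 embryo, with log2 fold changes from 0.56 to 0.78. Nr1d1 was at 2.1 to 4.58 CPM in control and 1.78 to 4.6 CPM in fusion livers. Its groups covered the same range, the log2 fold change was 0.07 ± 0.30 (SE; adjusted p = 0.904 in edgeR), and the sign turned in 5 other fits. The difference between the effects on Nr1d1 and Nr1d2 was not tested. Nr1d1 shares 263 exon bases, 8.55% of its exons, with Thra on the other strand, at 23.8 to 36.4 CPM in control and 16.1 to 27.0 CPM in fusion livers, and since the strand setting of the counting is not given, reads of the shared part cannot be told apart.

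Of the D-box factors, none passed the threshold. Tef was at 38.7, 42.1, 33.8, 29.4 and 31.3 CPM in control 1 to 5 and at 18.2, 21.5, 30.5 and 27.5 CPM in fusion 6 to 9. Only fusion 8 reached into the range of the controls, and control 1 and 2 and fusion 8 and 9, the libraries of 1 set, were the highest of their groups. The log2 fold change of -0.52 ± 0.17 (SE) missed the threshold (edgeR adjusted p = 0.0635) but passed within both sets, at -0.47 (edgeR adjusted p = 0.0462) and -0.68 (edgeR adjusted p = 0.00441), and with the set as a covariate (edgeR adjusted p = 0.000721). Tef did not pass with sex as a covariate (edgeR adjusted p = 0.0766). It passed in 1 of 9 fits without 1 embryo, that without fusion 8. Nfil3, which opposes DBP and TEF, was at 14.4, 19.9, 18.2, 15.3 and 17.8 CPM in control 1 to 5 and at 12.1, 11.9, 14.0 and 13.6 CPM in fusion 6 to 9. All fusion libraries were below all controls, with a log2 fold change of -0.41 ± 0.13 (SE; adjusted p = 0.0596 in edgeR). Dbp was at 0.976 to 1.96 CPM in control and 1.30 to 2.07 CPM in fusion livers, from 7 to 68 counts a library. No difference was detectable at this depth, the log2 fold change being 0.11 ± 0.24 (SE; adjusted p = 0.803 in edgeR). Of the exon bases of Dbp, 539, or 18.0%, are shared with Sphk2 on the other strand, which was at 26.1 to 35.4 CPM in the livers, so part of the Dbp counts cannot be told apart from Sphk2.

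**Figure D2:**
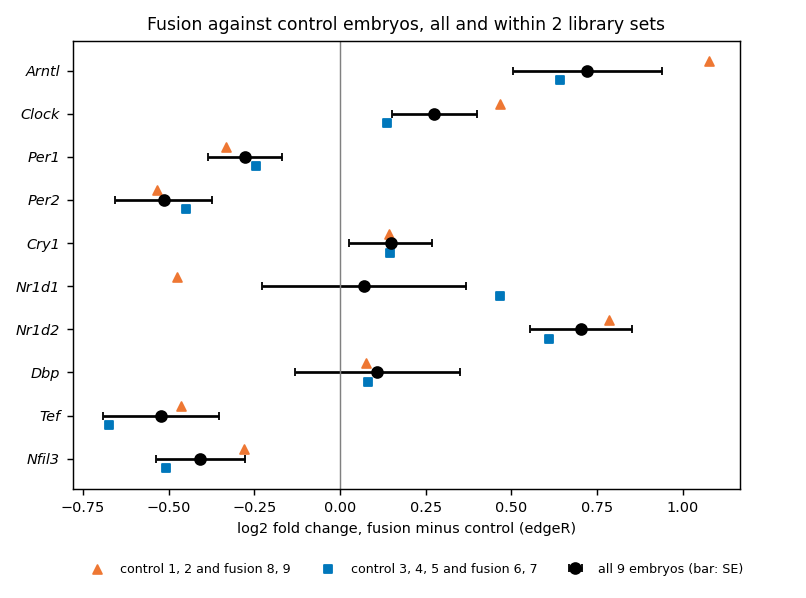
Log2 fold change of each clock gene, fusion minus control, from edgeR over all 9 embryos (black points with SE bars) and within the 2 library sets (triangles, control 1 and 2 and fusion 8 and 9; squares, control 3 to 5 and fusion 6 and 7). Except for Nr1d1, at -0.48 and 0.47, both sets lie on the same side of 0 for every gene.

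Within the library sets, 9 of the 10 members kept the sign of the whole comparison in both, the exception being Nr1d1. With the set as a covariate 6 of 10 members passed the threshold, Arntl and Nr1d2 higher and Per1, Per2, Tef and Nfil3 lower, beside 4345 of 13316 genes (32.6%). With sex as a covariate 1 of 10 passed, Nr1d2 (log2 fold change 0.64, edgeR adjusted p = 0.0345), beside 1284 of 13316 genes (9.64%). A test of whether the fusion effect differed between the sets called 0 of 10 members and 25 of 13316 genes (0.188%) in edgeR, and no member had an unadjusted p under 0.05. The 7 macrophage markers summed to 808 to 1033 CPM in control and 698 to 810 CPM in fusion livers, 0 of 7 past the threshold and 6 of 7 below 0. The sums of the endothelial markers (174 to 201 CPM in control and 166 to 258 CPM in fusion livers) and of the erythroid markers (2647 to 4369 and 2932 to 3765 CPM) overlapped between the groups, as did those of the fibroblast markers (193 to 357 and 176 to 280 CPM) and of the hepatocyte markers (72657 to 106753 and 56716 to 99107 CPM). Single markers differed: Tat (log2 fold change 4.68, edgeR adjusted p = 1.18e-05) and Cps1 (0.85, edgeR adjusted p = 0.0115) of the 8 hepatocyte markers were higher and Apoa1 (-0.89, edgeR adjusted p = 0.0382) lower, and Col1a1 of the 6 fibroblast markers was lower (-0.80, edgeR adjusted p = 0.0227). The part of cell composition in the clock gene differences was not tested.

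Beyond the 10 members, 17 of 19 other listed clock genes were tested in the embryos, and 4 passed the threshold, 2 higher and 2 lower in fusion livers, beside 12.8% of all genes, with a list median of 0.01 on the log2 scale. An unadjusted p under 0.05 was found for 9 of the 17, beside 29.3% of all genes. Rora, a ROR receptor that activates Arntl, rose from 18.7 to 27.8 CPM in control to 28.8 to 35.9 CPM in fusion livers (log2 fold change 0.49 ± 0.13 SE; adjusted p = 0.0282 in edgeR), and was called in 3 of 9 fits without 1 embryo, those without control 1, control 5 or fusion 7. Its call was also lost within control 3 to 5 and fusion 6 and 7 alone (log2 fold change 0.29, edgeR adjusted p = 0.104). Hlf, the third member of the family of Dbp and Tef, fell from 19.5 to 22.2 CPM to 11.1 to 16.2 CPM (log2 fold change -0.73 ± 0.13 SE; adjusted p = 0.00573 in edgeR), a call lost within control 1 and 2 and fusion 8 and 9 alone (-0.56). Cry2, the companion of Cry1, fell from 39.0 to 58.6 CPM to 27.0 to 33.1 CPM (log2 fold change -0.66 ± 0.15 SE; adjusted p = 0.0148 in edgeR). Bhlhe41, also called Dec2, a repressor at E-boxes, rose from 0.123 to 0.517 CPM, 2 to 11 counts a library, to 1.30 to 2.38 CPM (log2 fold change 2.25 ± 0.36 SE; adjusted p = 0.00267 in edgeR), and the control counts are too few to fix the size of the rise. The groups did not overlap for 7 of the 17 genes, these 4 among them, beside 16.5% of all genes. Because the 4 were picked by p-values from the same libraries, their lack of overlap is no separate support. Rorb was analysed in neither experiment, and Fbxl21 only in the tumours.

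Of 15 listed genes with daily rhythms in liver or known as targets of clock factors, 14 were tested and 4 passed, beside 12.8% of all genes, with a list median of -0.17 on the log2 scale. An unadjusted p under 0.05 was found for 7 of the 14, beside 29.3% of all genes. Alas1, the rate-limiting enzyme of haem synthesis, rose from 41.3 to 55.3 CPM in control to 82.6 to 115 CPM in fusion livers (log2 fold change 1.00 ± 0.13 SE; adjusted p = 0.00109 in edgeR). Cyp7a1, the rate-limiting enzyme of bile acid synthesis, fell from 23.4 to 40.7 CPM to 2.49 to 13.9 CPM (log2 fold change -2.30 ± 0.42 SE; adjusted p = 0.00564 in edgeR). Nr1i3, the xenobiotic receptor CAR, fell from 8.98 to 24.9 CPM to 2.25 to 5.13 CPM (log2 fold change -2.32 ± 0.35 SE; adjusted p = 0.00216 in edgeR). Cdkn1a, the cell cycle inhibitor p21, fell from 52.7 to 76.1 CPM to 24.7 to 37.3 CPM (log2 fold change -1.0 ± 0.16 SE; adjusted p = 0.00267 in edgeR). These genes have other regulators too, and Elovl3 was not analysed here.

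**Figure D3:**
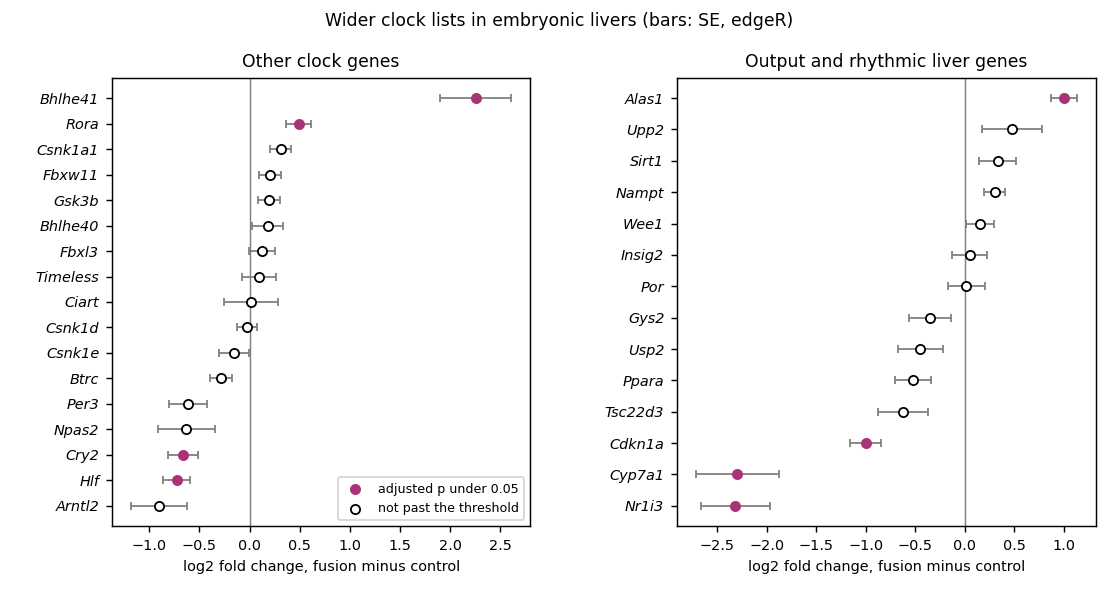
Log2 fold change, fusion minus control, with SE bars (edgeR, 9 embryos), of the 17 other clock genes (left) and 14 output or rhythmic liver genes (right) that were tested; filled points have an adjusted p under 0.05. The 4 filled clock genes lie on both sides of 0, with Hlf at -0.73 and Bhlhe41 at 2.25.

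The tumour comparison asks whether the clock genes differ between palbociclib and vehicle tumours. None of the 10 members was called: every limma adjusted p was at least 0.953, beside 0 of 12829 genes (0%) past the threshold, 586 genes (4.57%) with an unadjusted p under 0.05, and 7 and 0 genes called by DESeq2 and edgeR on recovered reads. The members with an unadjusted p under 0.05 were Nr1d1 and Nr1d2, 2 of 10, both with negative differences. The groups overlapped for 10 of 10 members, beside 0.935% of genes whose groups did not. The median difference of the members was -0.02 and that of all genes 0.14 on the log2(CPM + 1) scale. TMM scaling moved the latter to 0.01 and the members to -0.16. A member level with the median gene therefore lies at 0.14 in the differences over all 10 tumours below. In the fit without vehicle 1, the median was 0.03 for all genes and -0.11 for the members.

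In vehicle tumours Nfil3 was the highest member per length, at 21.4 ± 10.6 CPM per kb (SD, n = 5), followed by Nr1d1 at 11.5 ± 4.71 CPM per kb, and Per2 was the lowest at 1.74 ± 0.981 CPM per kb. Every pair of neighbours in that order overlapped. Without vehicle 1, Nfil3 (25.0 ± 7.85 CPM per kb, SD, n = 4) and Nr1d1 (12.3 ± 5.07 CPM per kb) again led and Per2 (1.58 ± 1.06 CPM per kb) was again last, while Dbp moved from 5.37 to 1.92 CPM per kb. In palbociclib tumours Nfil3 (22 ± 5.86 CPM per kb) again led, followed by Nr1d1 (6.86 ± 5.71 CPM per kb), and Dbp was the lowest at 1.01 ± 0.374 CPM per kb, also with overlapping neighbours. Over all 10 tumours, the highest exceeded the lowest 64.7-fold for Dbp, 23.7-fold for Arntl, 12.6-fold for Per1, 4.28-fold for Tef and 2.55-fold for Nr1d2. Much of this spread came from single libraries. Without vehicle 1 it was 12.9-fold for Dbp, 3.20-fold for Arntl, 1.71-fold for Tef and 2.47-fold for Nr1d2, and without vehicle 5, whose Per1 value rests on 19 reads, it was 3.41-fold for Per1.

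**Figure D4:**
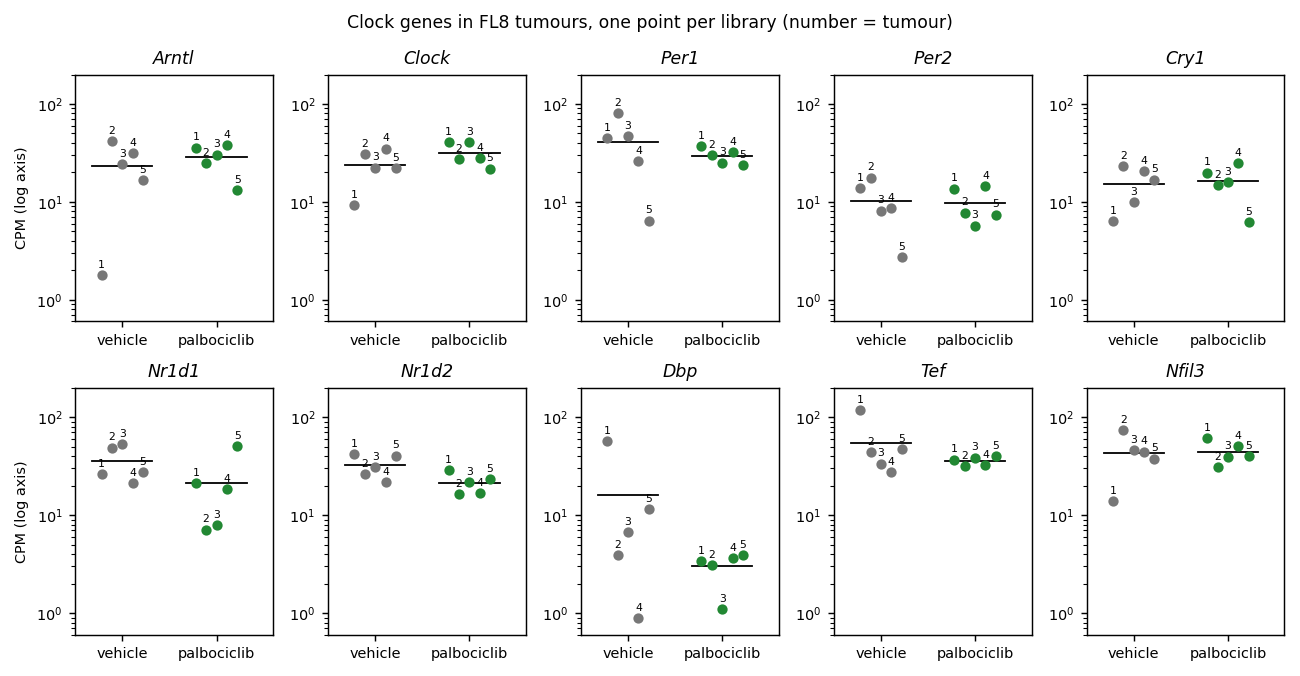
CPM as deposited of the 10 clock genes in each FL8 tumour, on a log axis, with 1 point per tumour labelled by its number and a line at the mean of each treatment (n = 5 each). Vehicle 1 is the lowest tumour for Arntl (1.77 CPM) and the highest for Dbp (57.5 CPM) and Tef (118 CPM), and the treatments overlap for every gene.

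Arntl was at 1.77, 42.0, 24.2, 31.6 and 16.6 CPM in vehicle 1 to 5 and at 35.9, 24.9, 30.4, 37.8 and 13.1 CPM in palbociclib 1 to 5. Apart from vehicle 1 the treatments covered the same range. The difference was 0.65 on the log2(CPM + 1) scale, with a 95% interval from -0.53 to 1.83, and -0.02 without vehicle 1. Clock was at 9.30 CPM in vehicle 1, at 22 to 35.1 CPM in the other vehicle tumours and at 21.9 to 41.0 CPM in palbociclib tumours. Its difference of 0.48 (95% interval -0.21 to 1.16) became 0.19 without vehicle 1. Without vehicle 1, neither activator differed by more than 0.19 on this scale.

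Of the repressors, Per1 was at 45, 81.1, 47.0, 26 and 6.43 CPM in vehicle 1 to 5 and at 37.3, 29.8, 25.2, 32.4 and 23.8 CPM in palbociclib 1 to 5. The vehicle tumours lay on both sides of the palbociclib ones, and the lowest value, of vehicle 5, rests on 19 reads. Its difference was -0.10 (95% interval -1.08 to 0.88), or 0.02 without vehicle 1. Per2 ranged from 2.71 to 17.7 CPM in vehicle and from 5.73 to 14.5 CPM in palbociclib tumours, with a difference of 0.07 (95% interval -0.78 to 0.92), or 0.22 without vehicle 1. Cry1 ranged from 6.38 to 23.1 CPM and from 6.24 to 24.9 CPM, with a difference of 0.10 (95% interval -0.71 to 0.91), or -0.16 without vehicle 1. The intervals of these 3 genes span differences of either sign, so no direction can be given for them.

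Nr1d1 was at 26.1, 49.0, 53.2, 21.4 and 27.7 CPM in vehicle 1 to 5 and at 21.4, 7.11, 7.95, 18.5 and 50.4 CPM in palbociclib 1 to 5. Palbociclib 1 to 4 lay level with or below vehicle 4, the lowest vehicle tumour, and palbociclib 5 was among the highest. The difference was -0.97 ± 0.43 (SE), with a 95% interval from -1.89 to -0.05 and a limma adjusted p of 0.953. Nr1d2 was at 41.9, 26.3, 31.2, 21.9 and 40.6 CPM in vehicle 1 to 5 and at 28.6, 16.4, 21.6, 16.7 and 23.3 CPM in palbociclib 1 to 5. The palbociclib tumours were lower on average, with overlap, and the difference was -0.57 ± 0.26 (SE), with a 95% interval from -1.12 to -0.02 and a limma adjusted p of 0.953. Without vehicle 1 the differences were -1.05 for Nr1d1 and -0.47 for Nr1d2. Both kept their sign in all other settings and fits without 1 tumour, between -1.36 and -0.69 for Nr1d1 and between -0.89 and -0.32 for Nr1d2, and none passed the threshold. The erythroid marker sum was 20114 and 49090 CPM in vehicle 2 and 3, the vehicle tumours with the most Nr1d1, and 3999 CPM in palbociclib 5; its part in the Nr1d1 values was not tested.

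Dbp was at 57.5, 3.89, 6.67, 0.888 and 11.5 CPM in vehicle 1 to 5 and at 3.42, 3.11, 1.10, 3.62 and 3.90 CPM in palbociclib 1 to 5. Vehicle 1 was far above the next highest tumour, vehicle 5. The difference of -1.18 ± 0.64 (SE; 95% interval -2.54 to 0.18; limma adjusted p = 0.953) became -0.50 without vehicle 1. Sphk2, whose exons overlap those of Dbp, was at 19.9 CPM in vehicle 1, and the vehicle tumours reached 49.97 CPM. Mitochondrial reads, 46.6% of the total in vehicle 1, lower the CPM of its other genes. The Sphk2 value of vehicle 1 is therefore not comparable with those of the other tumours. Tef was at 118, 44.1, 33.7, 27.6 and 47.4 CPM in vehicle 1 to 5 and at 36.9, 31.5, 38.7, 32.4 and 40.3 CPM in palbociclib 1 to 5. Its difference of -0.39 (95% interval -1.06 to 0.29) became -0.06 without vehicle 1. Nfil3 was at 13.9 CPM in vehicle 1, 37.9 to 73.9 CPM in the other vehicle tumours and 31.1 to 61.7 CPM in palbociclib tumours, with a difference of 0.18 (95% interval -0.56 to 0.92) that turned to -0.17 without vehicle 1.

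**Figure D5:**
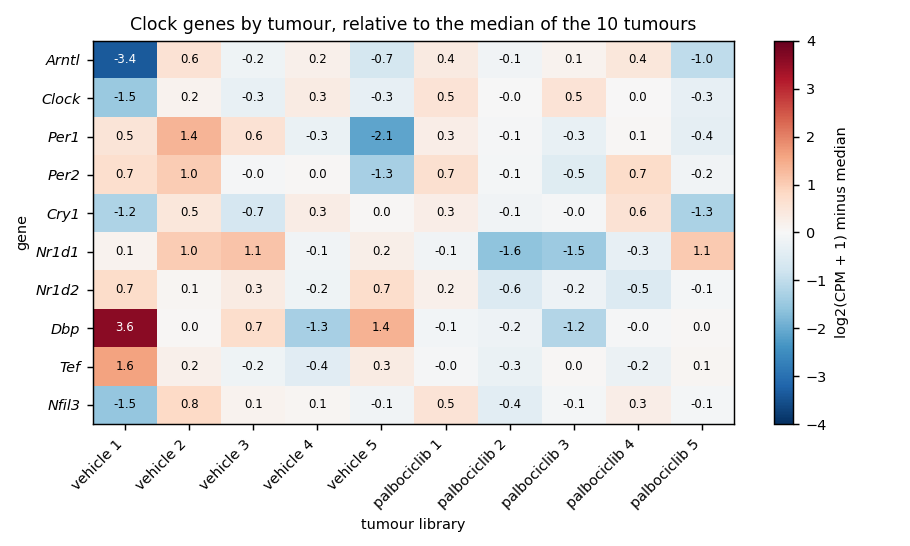
Log2(CPM + 1) of each clock gene (rows) in each tumour (columns), minus that gene's median over the 10 tumours; red is above and blue below the median. Vehicle 1 combines Arntl at -3.4, Clock and Nfil3 at -1.5 and Cry1 at -1.2 with Dbp at 3.6 and Tef at 1.6.

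Vehicle 1 thus differed from the other 9 tumours across the members rather than in a single gene. Relative to the median over the 10 tumours on the log2(CPM + 1) scale, it was at -3.36 for Arntl, -1.48 for Clock, -1.24 for Cry1 and -1.53 for Nfil3, and at 3.62 for Dbp, 1.62 for Tef and 0.74 for Nr1d2. The log2 ratio of Dbp to Arntl within a library, which does not depend on its scaling, was 5.02 in vehicle 1, -5.15 to -0.53 in the other vehicle tumours and -4.79 to -1.75 in palbociclib tumours. In the embryos the same ratio ran from -3.22 to -1.63 in control and from -3.92 to -3.05 in fusion livers. With mitochondrial genes left out of the total, vehicle 1 was still the lowest of the 10 tumours for Arntl (3.32 CPM, against 13.8 to 42.5 CPM in the other 9), Clock (17.4 CPM, against 22.6 to 43.8 CPM) and Nfil3 (26 CPM, against 32.5 to 74.9 CPM). It was the highest for Dbp (108 CPM, against 0.927 to 11.8 CPM), Tef (221 CPM, against 28.8 to 48.7 CPM), Nr1d2 (78.4 CPM, against 17.1 to 41.7 CPM), Per2 (25.8 CPM, against 2.78 to 17.9 CPM) and, narrowly, Per1 (84.3 CPM, against 6.61 to 82.1 CPM). On that scale Cry1 (11.9 CPM) and Nr1d1 (48.9 CPM) lay within the range of the others. This library also had the highest share of mitochondrial reads, the highest macrophage marker sum in CPM and the lowest hepatocyte marker sum in CPM. The hepatocyte sum is itself lowered by the mitochondrial reads. What part these traits had in its clock gene levels was not tested.

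To describe how the members moved together across tumours, 10 pairs taken from the known wiring of the clock were compared over the 10 tumours, with permutation p-values adjusted over the 10 pairs. Arntl and Clock were correlated with Pearson r = 0.92 (adjusted permutation p = 0.0054) and Spearman rho = 0.78 (adjusted permutation p = 0.0262), and r was 0.64 without the 2 tumours farthest from the median of Arntl, vehicle 1 and palbociclib 5. Arntl and Nfil3 gave r = 0.91 (adjusted permutation p = 0.0054) and rho = 0.79 (adjusted permutation p = 0.0262), with r = 0.73 without those 2 tumours. Arntl and Cry1 gave r = 0.80 (adjusted permutation p = 0.0054) and rho = 0.89 (adjusted permutation p = 0.0108), with r = 0.62 without them. Arntl and Dbp were opposed, with r = -0.85 (adjusted permutation p = 0.0200) and rho = -0.59 (adjusted permutation p = 0.101), and with r = -0.56 without them. Dbp and Tef gave r = 0.89 (adjusted permutation p = 0.01) and rho = 0.75 (adjusted permutation p = 0.0344), and r = 0.31 without vehicle 1 and 5. Per1 and Per2 gave r = 0.88 (adjusted permutation p = 0.0054) and rho = 0.81 (adjusted permutation p = 0.0262), and r = 0.56 without vehicle 2 and 5.

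Leaving out vehicle 1 alone, only Arntl with Cry1 (r = 0.82, adjusted permutation p = 0.0436) and Per1 with Per2 (r = 0.87, adjusted permutation p = 0.0361) still passed. The correlations of Arntl with Clock, Nfil3 and Dbp and of Dbp with Tef no longer passed, at r = 0.71, 0.65, -0.44 and 0.57 over the 9 tumours. With TMM factors Arntl and Cry1 no longer passed (r = 0.62, adjusted permutation p = 0.109), while Per1 and Per2 did (r = 0.89, adjusted permutation p = 0.00753). By Spearman with TMM factors, Arntl with Clock, Arntl with Cry1 and Dbp with Tef no longer passed. Their rho was 0.67, 0.73 and 0.70, with adjusted permutation p-values of 0.0791, 0.067 and 0.0753. Arntl with Nfil3 (rho = 0.79) and Per1 with Per2 (rho = 0.85) still passed. Centred on the treatment mean, Dbp with Tef gave rho = 0.59 (adjusted permutation p = 0.133). The pairs Arntl with Nr1d1 (r = -0.15), Dbp with Nr1d1 (r = 0.32), Dbp with Nfil3 (r = -0.68) and Nr1d1 with Nr1d2 (r = 0.50) did not pass by Pearson, with adjusted permutation p-values of 0.669, 0.410, 0.0804 and 0.173. By Spearman, Dbp with Nr1d1 and Nr1d1 with Nr1d2 each gave rho = 0.70 (adjusted permutation p = 0.0452). With values centred on the treatment mean, rho was 0.22 (adjusted permutation p = 0.560) and 0.31 (adjusted permutation p = 0.483), and neither passed with TMM factors (rho = 0.58 and 0.61) or over the 9 tumours without vehicle 1 (rho = 0.75 and 0.78).

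Genes most like Per1, Dbp and Arntl were ranked by Pearson r of log2 values among genes averaging 10 CPM or more, as a description. Over the 9 embryos these were Dgkd, Ces2e and 2510002D24Rik for Per1 (r = 0.96, 0.95 and 0.94), Nt5m, Zzef1 and Gm2a for Dbp (r = 0.82, 0.81 and 0.78) and Myl12a, Lypla1 and Adk for Arntl (r = 0.99 for each), out of 8301 genes. Over the 10 tumours they were Mthfd1l and Dnmt3a for Per1 (r = 0.97 and 0.93), Acvrl1, Clta and Tef for Dbp (r = 0.93, 0.91 and 0.89) and Epha1, Eif1a and Pzp for Arntl (r = 0.98, 0.98 and 0.97), out of 8422 genes. Vehicle 1 was the highest tumour for Acvrl1, Clta and Tef, as for Dbp. Without it r was 0.57 for Dbp and Tef, and the ranking was not repeated. Tef, for Dbp, was the only member among the genes most like these 3. Only 7 of 10 members in the embryos and 8 of 10 in the tumours averaged 10 CPM or more. The others could not be ranked, nor could opposed genes appear, so the absence of members is not a result. No gene was among the most like in both experiments. The other clock genes and the output genes had 0 of 18 and 0 of 14 genes past the threshold in limma in the tumours, and 0 with an unadjusted p under 0.05 in either list.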

How the data were processed

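RNA sequencing of 9 embryonic livers and 10 FL8 tumours was used, with groups from the genotype and treatment labels. The members and gene lists were chosen with earlier results of these data known. For the embryos the authors deposited a table of raw counts, by gene symbol, from poly-A RNA; reads were mapped to mm10 with STAR 2.5.1b, per the submitters' processing notes, which also name DESeq2. Left out were 9 further columns of it, which rescale the same counts. For the tumours the authors deposited CPM per Ensembl gene; the submitters' processing notes name mm10, cutadapt 2.10, HISAT2, featureCounts, DESeq2 and R 4.1.2. The annotation and strand setting of the counting are not given in the sources used here. In every tumour library 100% of values were whole multiples of 1 read (tolerance 0.01 read), so reads could be recovered.

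Embryo counts were tested with edgeR 4.0.16 (quasi-likelihood, TMM factors, filterByExpr) in R 4.3.3, and embryo CPM carry TMM factors; the SE was derived from the F statistic. Tumour values were tested with limma 3.58.1 (trend) on log2(CPM + 1) for genes averaging 1 CPM or more, a scale that understates changes of low genes. All 10 members passed both filters. P-values are two-sided and Benjamini-Hochberg adjusted over all genes tested, with a threshold of 0.05. Pairs of members used 100000 permutations. The fits were tested on simulated data. Recovery of planted changes was required only of the embryo fit. Of both fits it was required that unchanged genes were rarely called. How large a difference the tumour fit could detect is not given here. Alternatives were other size factors, filters, a pseudocount of 0.1, DESeq2 1.42.0, limma-voom, the library set or sex (Xist above or below 10 CPM) as a covariate, each library left out, and vehicle 1 and 5 left out together, which was chosen after seeing the data.

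All 10 members are named. From the lists of other clock genes and of output genes, up to 8 past the threshold by smallest p were to be named, and for Per1, Dbp and Arntl the 3 genes most like each; a listed gene and a gene chosen for likeness are not reported here. A count of 3, the floor used, is 0.0658 to 0.392 CPM in embryo and 0.0695 to 1.01 CPM in tumour libraries, and covers counting error only. No pair of libraries of a group agreed within counting noise (lowest chi-square per degree of freedom 12.5 and 48.9). The labels do not say that embryos came from separate litters, so p-values measure the spread between these samples. Equal tumour numbers are not said to pair the samples, so the main fit used no block. Same-numbered tumours correlated between -0.317 and 0.00223, which cannot exclude a pairing. GENCODE M21 on GRCm38, the sequence of mm10, gave a symbol for 17469 of 17606 tumour genes and the exon lengths. Upstream sequences are from RefSeq; Per2 was not matched.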

Additional observations from a re-analysis of the deposited data

Results flagged for a closer look

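In vehicle tumours, Dbp in vehicle 1 (57.5 CPM) lay far above the other 4, at 0.888 to 11.5 CPM, with a gap larger than Dixon's 95% critical value. Tef in vehicle 1 (118 CPM) lay above the other 4, at 27.6 to 47.4 CPM, in the same way. In palbociclib tumours, Dbp in palbociclib 3 (1.10 CPM) lay below the other 4, at 3.11 to 3.90 CPM, from 40 reads. These were 3 of 40 groups of values examined, of which chance would single out about 2. Both high values belong to the library with 46.6% mitochondrial reads and the largest macrophage marker sum, 1192 CPM; their part in the values was not tested.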

How the results depend on the processing

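Among the embryos, the count of the 10 members past the threshold was 5 with DESeq2, 6 with the library set as a covariate and 1 with sex as a covariate. It was 3 within control 1 and 2 and fusion 8 and 9. Within control 3 to 5 and fusion 6 and 7, where genotype and sex cannot be told apart, it was 5. When 1 embryo was left out it was 1 to 2 (1 without control 3, control 5 or fusion 7). The count of all genes was 2443 with DESeq2 (18.3%), 1284 with sex as a covariate (9.64%) and 4345 with the set as a covariate (32.6%). Within the sets, in the same order, it was 2589 of 12930 genes (20%) and 2950 of 13524 genes (21.8%). Without 1 embryo it was 969 to 1581 genes, or 7.33% to 11.7% of those tested. The lowest counts were without control 3 (969), fusion 8 (987) and fusion 7 (1107). Nr1d1 turned to -0.28 on the log2 scale with sex as a covariate, to -0.48 within control 1 and 2 and fusion 8 and 9, and ran from -0.0883 to 0.29 without 1 embryo. The other 9 members kept their sign in every setting run. No paired analysis was possible for the embryos because the groups share no numbers.

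In the tumours, DESeq2 on recovered reads called 7 genes and no member, and every other setting called 0. With the replicate block, 0 genes and 0 members passed. Differences that changed sign were those of Per1, which ran from -0.63 to 0.23 without 1 tumour, turning without vehicle 1 (0.02), 2 (0.23) or 3 (0.04); of Per2 with TMM factors (-0.0712), without mitochondrial genes (-0.0745), with edgeR (-0.30), with DESeq2 (-0.31), without vehicle 1 and 5 (-0.20) and, from -0.28 to 0.30, without 1 tumour; of Cry1 with TMM factors (-0.0307), without mitochondrial genes (-0.0313), without vehicle 1 and 5 (-0.15) and, from -0.16 to 0.39, without 1 tumour; of Arntl without vehicle 1 (-0.016) and without vehicle 1 and 5 (-0.24), the range without 1 tumour being -0.016 to 0.97; of Tef without vehicle 1 and 5 (0.0527); and of Nfil3 with edgeR (-0.0186), DESeq2 (-0.03), limma-voom (-0.10), without vehicle 1 and 5 (-0.29) and, from -0.17 to 0.41, without 1 tumour. Dbp was at -3.00 with edgeR and -3.03 with DESeq2 on reads, and at -0.10 without vehicle 1 and 5.

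For the pairs, Arntl and Cry1 fell to r = 0.62 with TMM factors. Without vehicle 1, r was -0.44 for Arntl and Dbp, 0.71 for Arntl and Clock, 0.65 for Arntl and Nfil3, 0.57 for Dbp and Tef and 0.0101 for Dbp and Nfil3, whose sign turned. Arntl and Nr1d1 turned to 0.0052 when values were centred on the treatment mean. The cause of these changes was not tested. Depth limits Dbp in the embryos (7 to 68 counts) and Per2 in vehicle 5 (8 reads).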
